A study of Mus musculus with 3 samples.

Results

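Melanoma cells that carried transcripts of both Cck and Car6 were examined in single-cell RNA libraries of B16-F10 tumors. B16-F10 is a pigmented melanoma line of C57BL/6J mice. A barcode was taken as a melanoma cell when it had at least 5000 unique molecular identifiers (UMIs, each standing for 1 captured RNA molecule), at most 20% mitochondrial UMIs, and at least 0.5% of its UMIs from the pigment cell genes Dct and Pmel. Members were chosen by the measured UMIs of Cck and Car6: a melanoma cell with at least 1 UMI of Cck and at least 1 of Car6 was called double-positive, and one with 0 UMIs of both double-negative. Of 27374 barcodes, 18546 were melanoma cells, and 5480 of these (29.5%) were double-positive, 3243 (17.5%) double-negative, 1595 (8.60%) had Cck alone and 8228 (44.4%) had Car6 alone. There were 3 libraries, 1 labelled shCtrl (a control short hairpin RNA) and 2 labelled shMib2, whose tumor cells carried 1 of 2 hairpins against Mib2, an E3 ubiquitin ligase of the Notch pathway. Libraries were made with a 10x Genomics kit that reads the 5′ end of transcripts. Each library pooled tumors of 3 C57BL/6J mice of 6 to 8 weeks, dissociated with enzymes after growth in the skin, so the mice behind a library cannot be told apart and n is 1 library for shCtrl and 2 for shMib2. Before the melanoma filters the libraries held 9558, 9428 and 8388 barcodes and between 190904274 and 243926188 UMIs. Between 20 and 30 barcodes were shared by any 2 libraries, and 2 double-positive barcodes were shared in all.

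Cck encodes cholecystokinin, a peptide hormone of the gut and a neuropeptide of the brain, which is cut from a precursor, amidated and stored in dense-core granules. Its receptors are the G protein-coupled receptors Cckar and Cckbr. Car6 encodes carbonic anhydrase VI, the secreted member of a family of enzymes that interconvert carbon dioxide and bicarbonate, best known from saliva and milk. Ptgds, a lipocalin-type prostaglandin D synthase, and Syt4, a synaptotagmin of secretory vesicles, are expressed in cells of the melanocyte lineage, and both were proposed as further marks of these cells. In GENCODE vM21 (mm10) Cck lies on the minus strand at chr9:121489824-121495694 and Car6 on the minus strand at chr4:150187015-150201332.

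The 250 bases before the start of each defining gene are shown because both held the palindromic E-box CACGTG, the kind of site bound by basic helix-loop-helix factors of pigment cells. RefSeq places the Cck window at chr9:121495695-121495944 and the Car6 window at chr4:150201136-150201385 (GRCm38.p6, minus strand, printed 5′ to 3′, motifs in capitals).
Cck: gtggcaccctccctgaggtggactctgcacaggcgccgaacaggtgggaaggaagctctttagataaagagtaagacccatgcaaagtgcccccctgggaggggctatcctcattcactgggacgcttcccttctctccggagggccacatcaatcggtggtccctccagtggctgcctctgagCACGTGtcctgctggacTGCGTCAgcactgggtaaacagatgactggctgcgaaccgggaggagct
Car6: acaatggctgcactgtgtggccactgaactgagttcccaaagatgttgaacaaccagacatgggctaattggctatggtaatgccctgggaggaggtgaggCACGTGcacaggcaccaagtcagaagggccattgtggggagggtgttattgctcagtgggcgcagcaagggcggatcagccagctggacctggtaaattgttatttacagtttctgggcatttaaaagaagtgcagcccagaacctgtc
The E-box began 66 bases before the RefSeq start of Cck and 149 bases before that of Car6. For Car6 the 2 annotations differ: GENCODE starts the gene upstream of the RefSeq start, so part of the Car6 window, the E-box included, lies inside the GENCODE gene. On both strands, CACGTG was present in 6.02% of 32851 RefSeq windows of 250 bases. The Cck window also held TGCGTCA, which does not overlap the E-box and was found in 1.75% of windows. TGACGTCA (1.55% of windows) and CATGTG (12.3%) were searched as well and were in neither window. The windows of Ptgds, Arfgef3, Cyba, Cd9 and Enah were searched in the same way, and none of them held the E-box. The only searched motif in these windows was the last one named, in Cd9, 38 bases before its RefSeq start. The E-box was thus not shared by the proposed mark Ptgds or by these other genes. A match describes the letters only.

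The targeted gene was read first. Within double-positive cells Mib2 stood at 2.68 CPM (UMIs of the gene per 1000000 UMIs of the class) in shCtrl (exact Poisson 95% interval 2.33 to 3.07), at 3.14 CPM in the first shMib2 library, replicate 1 (2.70 to 3.63), and at 2.95 CPM in replicate 2 (2.57 to 3.37). In double-negative cells it stood at 2.44, 3.13 and 2.54 CPM. Unless said otherwise, 3 values in a row are those of shCtrl, shMib2 replicate 1 and shMib2 replicate 2. Mib2 RNA was therefore not lower in the libraries labelled shMib2, and directions between labels below are directions between libraries so labelled.

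Double-positive cells made up 28.4%, 27.6% and 35.1% of melanoma cells, with Wilson 95% intervals of 27.4 to 29.4%, 26.6 to 28.7% and 33.6 to 36.6%. Intervals cover counting error only. The shMib2 replicates differed from each other by more than their mean differed from shCtrl, and no exact test of 1 library against 2 can give a p below 0.333. The library with the highest share was also the deepest, with a median of 44590 UMIs per melanoma cell against 27119 in shCtrl and 25491 in shMib2 replicate 1. After every melanoma cell was thinned to 5000 UMIs, the shares were 6.40%, 7.67% and 6.89%, and shMib2 replicate 2 no longer stood above the others.

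Double-positive cells were more frequent among cells with more total UMIs. Double-positive cells had medians of 30968.5, 29416.5 and 49177 UMIs, against 22207, 21125 and 34797 in double-negative cells. When the melanoma cells of a library were split by total UMIs into 5 classes of equal size, the share went from 14.6% in the shallowest class to 45.8% in the deepest in shCtrl. The other libraries went from 14.4% to 44.9% and from 17.9% to 48.6%. Predicted doublets were 12.4%, 12.6% and 11.9% of double-positive cells and 3.17%, 5.18% and 6.09% of double-negative cells. These values belong to the rule itself and were not tested, nor was the cause of the link with total UMIs.

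**Figure D1:**
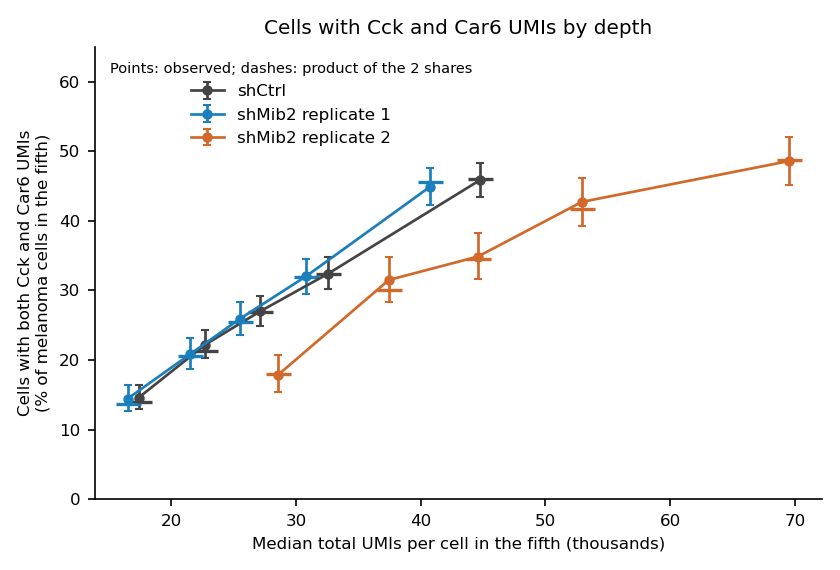
Share of melanoma cells with UMIs of both Cck and Car6 (y axis, percent) in 5 classes of total UMIs per cell (x axis, median of the class), for the 3 libraries. Points are observed shares with Wilson 95% intervals and dashes the product of the Cck and Car6 shares in that class. Shares climbed with depth in each library, from 14.6% to 45.8% in shCtrl, and the dashes lay inside the intervals.

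Cck and Car6 were detected together about as often as the product of their shares gives. In shCtrl 37.6% of melanoma cells had Cck and 72.0% had Car6, which gives 2190 cells with both if independent, and 2296 were seen (ratio 1.05). The shMib2 libraries had ratios of 1.05 and 1.04. Summed over the 5 depth classes it was 1.01, 1.01 and 1.02, and after thinning 0.991, 1.07 and 1.00. Across cells, Pearson's r of Cck with Car6 (log of UMIs per 10000) was -0.0165, 0.00321 and -0.0218, a description over cells that share a library.

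The 2 transcripts were spread over cells in different ways. Double-positive cells held a median of 2 Cck UMIs in each library, but the highest cells held 831, 691 and 2054. In shCtrl 46.8% of double-positive cells had a single Cck UMI while 14.6% had 51 or more, and the 10% of cells with most Cck held 74.4% of all Cck UMIs in the class. Car6 was more even, with medians of 3, 4 and 5 UMIs and maxima of 113, 307 and 146. Cells at the very edge of the rule, with 1 UMI of each gene, numbered 263, 196 and 137. With at least 2 UMIs of each gene required, the shares fell to 11.4%, 11.6% and 16.2%.

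**Figure D2:**
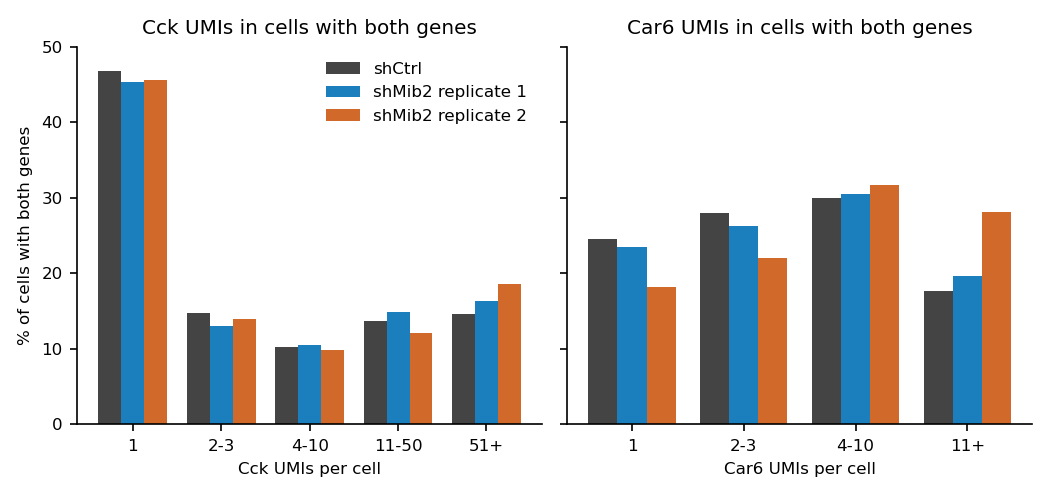
Double-positive cells by their number of Cck UMIs (left) and Car6 UMIs (right), as percent of the double-positive cells of each library (y axis). Cck is split between cells at 1 UMI, 46.8% in shCtrl, and a tail of 51 UMIs or more, 14.6%, while Car6 is spread over its classes.

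When only strong expression was counted, the pair came apart. At 5 or more UMIs per 10000, a level chosen after the values were seen, Cck was high in 9.53%, 10.1% and 10.7% of melanoma cells and Car6 in 7.34%, 8.51% and 7.68%. The Cck-high cells held 94.0%, 94.0% and 95.2% of all Cck UMIs. Both were high in 33, 39 and 19 cells, against 56.5, 56.4 and 32.3 if independent. The ratios of 0.584, 0.691 and 0.589 were below 1 in 3 of 3 libraries. Melanoma cells were also clustered without Cck and Car6. Double-positive cells occurred in all 12 clusters, at 17.0% to 48.0% of cells. In the 3 clusters with at least 10% Car6-high cells, between 14.0% and 15.7% of cells were Cck-high, and cells high in both numbered 22 against 65.4 if independent, 34 against 68.6 and 17 against 41.1. In the other 9 clusters 7.92% to 8.25% of cells were Cck-high, and cells high in both were few. They numbered 11 against 10.1 if independent in shCtrl and 5 against 7.21 in shMib2 replicate 1, and the 2 such cells of shMib2 replicate 2 gave a ratio of 0.606. The shortfall was thus seen in 3 of 3 libraries within the clusters rich in Car6, and in the others shCtrl had a ratio of 1.09.

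Free RNA was gauged in 121, 826 and 1317 barcodes of T and NK cells, which should hold neither transcript. Dct UMIs were found in 47.1%, 45.4% and 48.8% of them. Cck UMIs were found in 1.65%, 5.08% and 4.78% of these barcodes and Car6 UMIs in 3.31%, 2.06% and 1.67%, at median depths of 1545, 1502 and 2517 UMIs. After thinning to 1500 UMIs, Cck was in 11.8%, 12.3% and 11.8% of melanoma cells against 2.99%, 3.14% and 2.41% of T and NK barcodes. Thinning left 67, 414 and 1163 of these barcodes, so the shCtrl shares rest on few. The melanoma shares lay above the T and NK shares in each library, but a single Cck UMI in a deep cell cannot be told from free RNA.

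The proposed further marks were about as abundant in double-negative as in double-positive cells. Ptgds stood at 2075, 2064 and 2061 CPM in double-positive cells and at 2088, 2180 and 2145 CPM in double-negative cells. Its log2 fold change was -0.06 (SE 0.02, edgeR quasi-likelihood adjusted p = 0.0235), -0.04 (adjusted p = 0.199) in cells matched on total UMIs, and 0.14 (adjusted p = 2.19e-06) in cells thinned before the rule was applied, so its direction was not the same in the 3 fits. Syt4 stood at 791, 830 and 811 CPM against 843, 926 and 887 CPM, a log2 fold change of -0.14 (SE 0.02, adjusted p = 1.18e-05) that shrank to -0.02 (adjusted p = 0.50) in matched cells. Ptgds did vary among double-positive cells with their number of Cck UMIs: it averaged 1896 CPM (SD 42.2, n = 3 libraries) in cells with 1 Cck UMI and 2503 CPM (SD 66.9) in cells with 51 or more, higher in 3 of 3 libraries and given with no test. Syt4 averaged 802 CPM (SD 27.0) and 877 CPM (SD 27.7) in the same cells. Dct and Pmel, used in the rule, were present in both classes at similar levels, for example 8029 against 8382 CPM for Dct in shCtrl. The cells are therefore named here by the rule alone and not as a cell type.

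Double-positive and double-negative cells were next compared over all genes, with UMIs summed per class and library and the library as a block. In edgeR's quasi-likelihood test 3331 genes were higher (23.8% of 13967 tested) and 3394 lower (24.3%) in double-positive cells. Because the classes differ in depth by their definition, the same fit was run on equal numbers of both classes drawn within 20 bins of total UMIs, a choice made after the data were seen. There 1590 genes were higher (12.4% of 12843) and 1917 lower (14.9%). With cells thinned to 5000 UMIs before the rule was applied, 780 were higher (6.94% of 11232) and 821 lower (7.31%). Of 3264 genes higher in all cells and tested in matched cells, 1428 were again higher and 122 were lower. Genes and lists of this comparison are therefore given in both fits.

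Among called genes of at least 20 CPM, the largest difference on the higher side was in Cyba (chr8:122424776-122432930), the p22phox subunit of the superoxide-making NADPH oxidase. Cyba stood at 70.6, 87.6 and 84.6 CPM in double-positive cells and at 15.6, 23.4 and 19.0 CPM in double-negative cells. The groups did not overlap, and the log2 fold change was 2.06 (SE 0.04, adjusted p = 1.72e-22), or 2.00 (SE 0.05) in matched cells. Cd9 (chr6:125460266-125494791), a tetraspanin of the cell surface, stood at 39.9, 45.2 and 40.2 CPM against 17.3, 16.6 and 14.5 CPM, with log2 fold changes of 1.34 and 1.18 in all and in matched cells. Enah, an actin regulator of the cell's leading edge, stood at 51.2, 65.2 and 62.1 CPM against 20.6, 26.9 and 22.8 CPM (1.32 and 1.37).

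Arfgef3 (chr10:18581839-18743949), a protein of the guanine nucleotide exchange factor family that is located on secretory granules in endocrine cells, stood at 101, 121 and 108 CPM against 45.6, 53.3 and 42.5 CPM. Its log2 fold change was 1.20 (SE 0.03) in all cells and 1.51 (SE 0.04) in matched cells, so it grew when depth was matched. Bmyc, a Myc relative, stood at 102, 111 and 104 CPM against 50.5, 48.2 and 45.3 CPM (1.12 and 1.05). Ssbp4, Ckap4, Gsdmc, Limch1, Tuba4a and Sord were higher by 0.74 to 1.03 on the log2 scale in all cells and by 0.66 to 0.87 in matched cells. Hist1h1e, a linker histone, was higher by 0.74 in all cells but by only 0.13 in matched cells.

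Kit, the stem cell factor receptor of the melanocyte lineage, was the member of the melanocyte factor list with the lowest p. It stood at 3.70, 5.30 and 4.15 CPM in double-positive cells against 0.402, 0.821 and 0.346 CPM in double-negative cells. This was a log2 fold change of 3.02 (SE 0.17, adjusted p = 9.17e-14), or 2.73 (SE 0.22, adjusted p = 1.42e-06) in matched cells. The levels were low in both classes, with each double-positive value above each double-negative value. Of 21 tested genes of this list 5 were higher and 7 lower, and in matched cells 8 of 20 were higher and 5 lower. Over all genes 23.8% were higher and 24.3% lower, and in matched cells 12.4% and 14.9%. Kit therefore does not stand for its list.

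**Figure D3:**
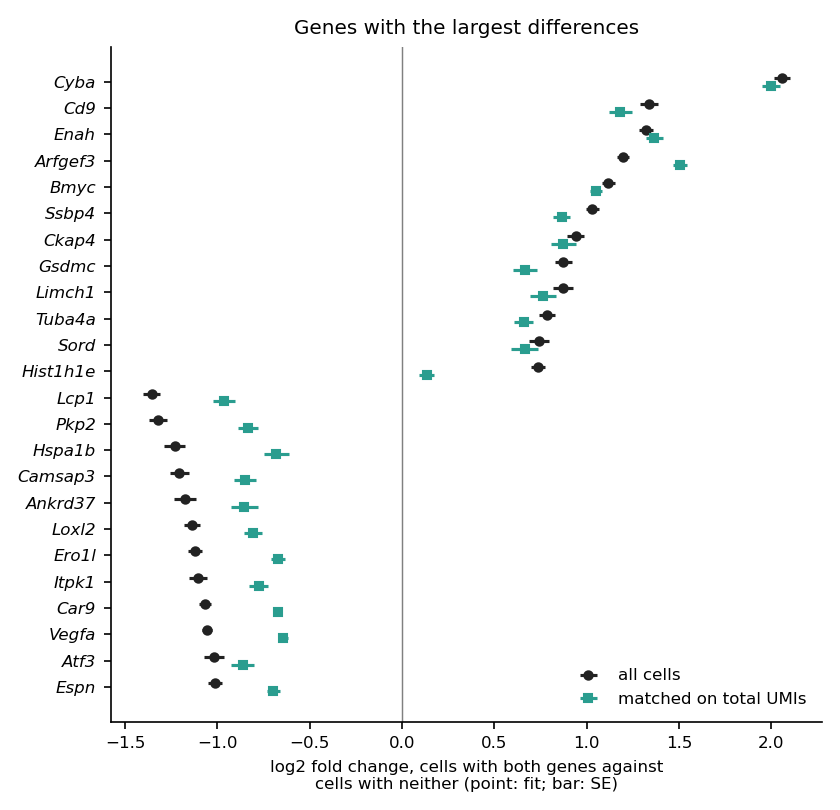
Log2 fold change (x axis) of 24 genes, the 12 in each direction with the largest differences between double-positive and double-negative cells among called genes of at least 20 CPM that are no markers of other cell types, in all cells (black) and in cells matched on total UMIs (green). Points are edgeR fits over 3 libraries and bars their SE, worked out from the fold change and the F statistic. Each gene kept its direction, from Cyba at 2.06 and 2.00 to Hist1h1e, which shrank from 0.74 to 0.13.

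Genes of low oxygen and sugar use were lower in double-positive cells. Of 35 tested genes of hypoxia and glycolysis, 32 were lower and 0 higher in all cells (median log2 fold change -0.45, against -0.01 over all genes), and 31 were lower and 0 higher in matched cells (median -0.24). Car9, a membrane carbonic anhydrase and a classical target of hypoxia-inducible factor, stood at 175, 169 and 163 CPM against 344, 341 and 368 CPM. Its log2 fold change was -1.07 (SE 0.03, adjusted p = 1.92e-19), and -0.67 (SE 0.02) in matched cells. The side of Car6 itself was fixed by the rule and is no result to set beside Car9. Vegfa, the angiogenic growth factor, stood at 79.1, 101 and 91.4 CPM against 154, 215 and 193 CPM (log2 fold change -1.06, and -0.64 matched). Ero1l, an oxidase of the endoplasmic reticulum, stood at 316, 322 and 317 CPM against 635, 652 and 784 CPM (-1.12 and -0.67). Ankrd37 (-1.18 and -0.86) and the mitophagy receptor Bnip3 (-0.80 and -0.49) were lower as well.

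Other lower genes included the actin-bundling proteins Lcp1 and Espn, the desmosomal protein Pkp2, the microtubule minus-end protein Camsap3 and the lysyl oxidase Loxl2. Lcp1 stood at 13.5, 13.2 and 16.1 CPM against 33.2, 36.5 and 38.7 CPM, a log2 fold change of -1.36 (SE 0.05), or -0.97 matched. Atf3, a stress transcription factor, had log2 fold changes of -1.02 and -0.86 in all and in matched cells, and the heat shock gene Hspa1b had -1.23 and -0.68. In the list of immediate early and dissociation genes 17 of 26 were lower and 5 higher, and in matched cells 12 of 25 were lower and 6 higher. Cdkn1a, the cell cycle inhibitor p21, stood at 182, 167 and 179 CPM against 287, 277 and 316 CPM, a log2 fold change of -0.75, or -0.80 matched. Of 23 genes of p53 response and cell cycle arrest 14 were lower and 3 higher, and in matched cells 9 of 21 were lower and 2 higher.

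The cell cycle lists depended on depth. All 34 tested genes of G2 and mitosis were higher in all cells (median 0.50), but in matched cells 20 were lower and 1 higher (median -0.21). Top2a, the topoisomerase of dividing cells, stood at 307, 320 and 286 CPM against 226, 215 and 192 CPM, with a log2 fold change of 0.51 in all cells and -0.33 in matched cells. Of 29 S phase genes 28 were higher in all cells and 1 in matched cells, where 3 were lower. No direction for dividing cells can therefore be read from the classes as the rule defines them.

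Pigment genes moved less but in the same way in both fits. Of 19 tested genes of melanin synthesis and melanosomes, 12 were higher and 3 lower in all cells (median 0.12), and again 12 and 3 in matched cells (median 0.18). Oca2, a melanosomal chloride channel, had log2 fold changes of 0.26 and 0.49 in all and in matched cells. Slc24a5, a cation exchanger needed for pigment, had 0.21 and 0.31, and Mlph, which links melanosomes to myosin, 0.40 and 0.45. Tyr, the tyrosinase that starts melanin synthesis, was among the 3 lower genes, at 290, 351 and 311 CPM against 378, 462 and 396 CPM (-0.39 and -0.19). Of 20 tested genes of dedifferentiated melanoma 10 were lower and 2 higher, and in matched cells 9 of 16 were lower and 1 higher. Among these were the growth-linked secreted proteins Ccn1 (-0.84 and -0.40) and Ccn2 (-1.30 and -0.63).

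Few genes that process a peptide hormone could be tested. Of 27 listed genes of hormone processing and dense-core granules 9 were tested, with 4 lower and 0 higher. In matched cells 7 were tested, with 1 lower and 0 higher. Over all genes 23.8% were higher and 24.3% lower, and in matched cells 12.4% and 14.9%. With so few genes tested, 0 higher calls cannot be told from the share over all genes. Cpe, carboxypeptidase E of the granule, stood at 116, 115 and 122 CPM against 136, 155 and 150 CPM (log2 fold change -0.33, adjusted p = 5.72e-10, and -0.24 matched). Pam, which amidates peptides such as cholecystokinin, stood at 12.5, 12.5 and 14.5 CPM against 14.0, 14.0 and 14.6 CPM (-0.14, adjusted p = 0.046, and -0.02, adjusted p = 0.871, matched). No UMI of Cckar or Cckbr was found in double-positive cells of any library, which allows at most 0.0526 CPM in the shallowest of the 3 sums. Of 21 synaptotagmins and SNARE genes 2 were higher and 10 lower, and 2 and 4 in matched cells. In the higher direction Sv2a, a synaptic vesicle protein named after its values were seen, was called in both fits (0.47 and 0.68).

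Among other lists, cholesterol and lipid synthesis had 20 of 28 genes higher and 1 lower, and 10 and 0 in matched cells. The list of carbonic anhydrases and bicarbonate transport, which leaves out Car6, had 4 of 15 higher and 4 lower, and 2 of 11 higher and 3 lower in matched cells. Prostaglandin synthesis and receptors had 3 of 13 higher and 3 lower, and 2 of 9 higher and 0 lower in matched cells. The Notch list had 1 of 21 higher and 7 lower, and 0 of 19 higher and 4 lower in matched cells, while its ligand gene Jag1 had log2 fold changes of -0.71 (adjusted p = 4.35e-06) and -0.50 (adjusted p = 0.0117) in all and in matched cells. MHC class I presentation had 7 of 20 higher and 4 lower, and 4 and 5 in matched cells. Beside these counts, 48.1% of all genes passed in all cells and 27.3% in matched cells.

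**Figure D4:**
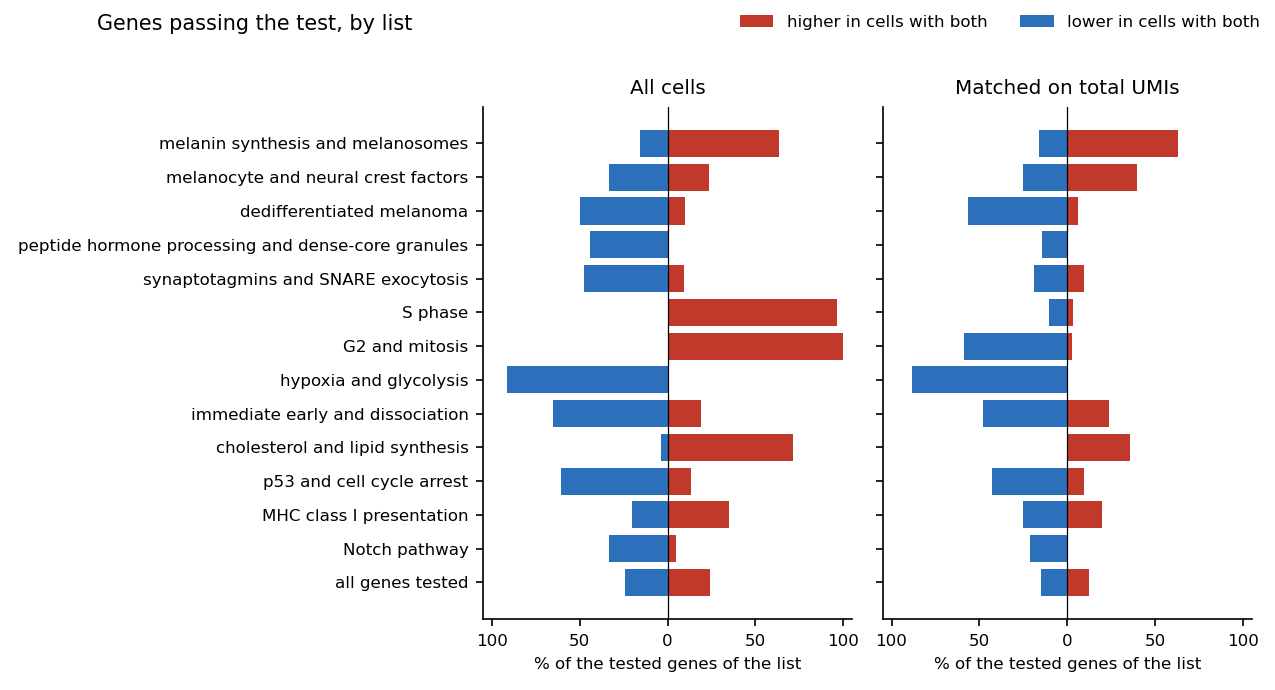
Percent of the tested genes of each list that were higher (red) or lower (blue) in double-positive than in double-negative cells, in all cells (left) and in cells matched on total UMIs (right). Hypoxia and glycolysis stayed on the lower side, with 32 and 31 of 35 genes, while G2 and mitosis went from 34 higher to 20 lower.

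RNA of other cell types was present in small amounts and differed between the classes. Fibroblast markers summed to 4.21, 175 and 115 CPM in double-positive cells and to 3.13, 207 and 245 CPM in double-negative cells. The 5 erythrocyte markers summed to 129, 243 and 277 CPM against 177, 480 and 453 CPM. Schwann cell markers summed to 231, 221 and 253 CPM against 331, 322 and 400 CPM. The direction was not the same for all types. T and NK markers stood at 1.83, 9.22 and 19.0 CPM against 1.24, 16.5 and 16.5 CPM. Mononuclear phagocyte markers stood at 12.6, 49.7 and 47.9 CPM against 10.5, 66.8 and 59.1 CPM. Endothelial markers were higher in double-positive cells in 3 of 3 libraries, at 63.5, 59.3 and 55.8 CPM against 60.5, 53.6 and 51.7 CPM. All 8 fibroblast and all 5 erythrocyte markers were above 0, and the part of these RNAs in the results above was not tested.

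To see which differences went with which transcript, all 4 classes (both, Cck alone, Car6 alone, neither) were drawn in equal numbers per bin of total UMIs and fitted together, an analysis chosen after the data were seen. The Cck term compares cells with Cck alone with double-negative cells, and the Car6 term cells with Car6 alone. The Cck term called 26 genes higher (0.208% of 12498) and 15 lower (0.12%), and the Car6 term 985 higher (7.88%) and 1042 lower (8.34%). The last term asks whether double-positive cells differ by more or less than the sum of both. In edgeR it called 1 gene (0.008%), with 584 at an unadjusted p under 0.05.

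Arfgef3 went mainly with Cck. In all cells it stood at 45.6, 53.3 and 42.5 CPM in double-negative cells, 47.1, 57.4 and 52.1 CPM with Car6 alone, 107, 110.1 and 110.3 CPM with Cck alone, and 101, 121 and 108 CPM with both. Its Cck term was 1.29 (SE 0.09, adjusted p = 3.57e-08) and its Car6 term 0.47 (SE 0.10, adjusted p = 0.00266). Within double-positive cells, split by UMIs at steps chosen after the values were seen and given with no test, its level averaged 60.0 CPM (SD 6.66, n = 3 libraries) at 1 Cck UMI and 243 CPM (SD 24.9) at 51 or more, without overlap. Along Car6 it averaged 110 CPM (SD 8.45) at 1 Car6 UMI, 115 CPM (SD 18.6) at 2 to 3, 123 CPM (SD 8.84) at 4 to 10 and 90.5 CPM (SD 8.21) at 11 or more. Cck itself averaged 1062 CPM at 4 to 10 Car6 UMIs and 614 CPM at 11 or more. These steps were not matched on depth. From 1 to 11 or more Car6 UMIs, median total UMIs went from 27064 to 37112, 25542 to 34710 and 42026.5 to 58221. From 1 to 51 or more Cck UMIs they went from 30483 to 31059, 29700 to 28098 and 48978 to 50131.5. The part of depth in levels along Car6 was not tested.

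Cd9 went with Car6. It stood at 18.3, 19.8 and 16.4 CPM with Cck alone, next to 17.3, 16.6 and 14.5 CPM in double-negative cells, and at 38.1, 45.7 and 36.5 CPM with Car6 alone. Its Car6 term was 1.31 (SE 0.09, adjusted p = 2.53e-09) and its Cck term 0.22 (SE 0.10, adjusted p = 0.534). Along Car6 UMIs within double-positive cells, where total UMIs rose too, it averaged from 20.9 CPM (SD 5.95) to 67.9 CPM (SD 5.25). Along Cck it stayed between 41.1 and 44.3 CPM. Gsdmc, a gasdermin, had a Car6 term of 0.89 (adjusted p = 4.47e-08) and a Cck term of 0.01 (adjusted p = 0.998). Along Cck within double-positive cells, however, it averaged from 33.7 CPM (SD 3.88) down to 25.1 CPM (SD 3.07).

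Cyba and Enah went with both. Cyba had a Cck term of 1.05 (SE 0.06) and a Car6 term of 1.45 (SE 0.06), and Enah 0.86 and 1.01. Their combined terms were -0.45 (adjusted p = 0.0715) and -0.43 (adjusted p = 0.0962), which missed the threshold. Kcnj13, a potassium channel, went in opposite directions, with a Cck term of 0.80 (SE 0.16, adjusted p = 0.0269) and a Car6 term of -1.07 (SE 0.19, adjusted p = 0.000606). Its level within double-positive cells averaged 10.9 CPM at 1 Cck UMI and 61.1 CPM at 51 or more. The Cck term was no longer called without shCtrl (0.70, adjusted p = 0.477) or without shMib2 replicate 2 (0.64, adjusted p = 0.0517).

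**Figure D5:**
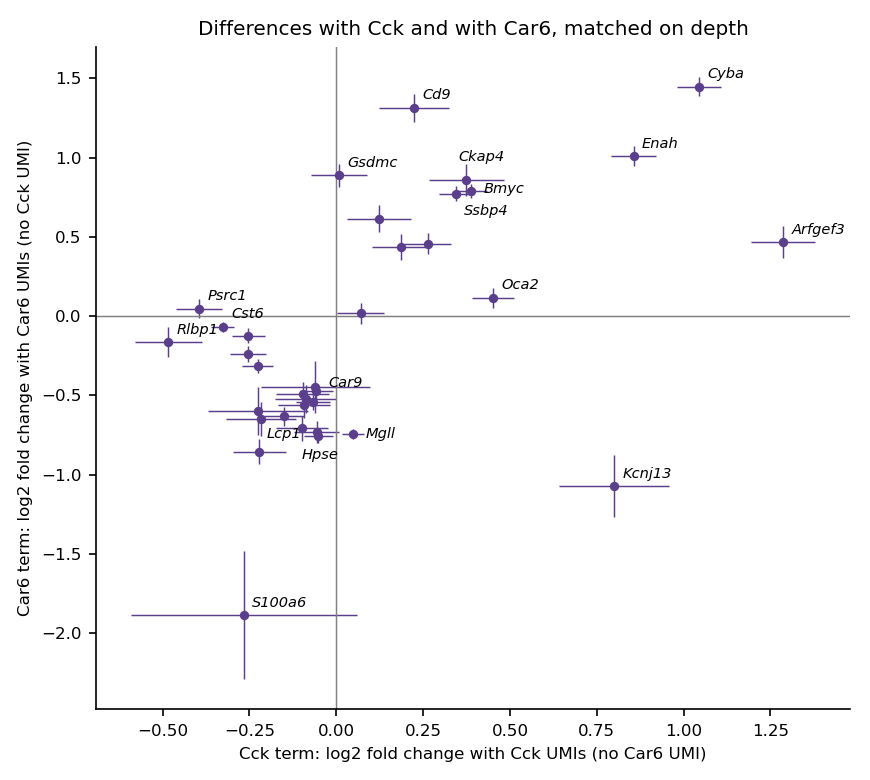
Log2 fold change with Cck alone (x axis) against log2 fold change with Car6 alone (y axis), each relative to double-negative cells matched on total UMIs. Points are edgeR fits over 3 libraries with SE bars worked out from the fold change and the F statistic. Arfgef3 (1.29 and 0.47) lies far along the Cck axis, Cd9 (0.22 and 1.31) along the Car6 axis, Cyba and Enah along both, and Kcnj13 (0.80 and -1.07) in the lower right.

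Mgll, the monoacylglycerol lipase that degrades an endocannabinoid, was the gene called by the combined term. It stood at 959, 932 and 929 CPM in double-negative cells, 982, 1083 and 1011 CPM with Cck alone, 613, 560 and 536 CPM with Car6 alone, and 723, 633 and 656 CPM with both. Its Car6 term was -0.74 (SE 0.03), its Cck term 0.05 (SE 0.03), and its combined term 0.30 (SE 0.05, adjusted p = 0.0254). Within double-positive cells it averaged 564 CPM (SD 60.8) at 1 Cck UMI and 972 CPM (SD 68.4) at 51 or more. At 1 Car6 UMI it averaged 987 CPM (SD 75.6) and at 11 or more 300 CPM (SD 28.1), in steps of unequal depth. The combined term missed the threshold without shCtrl (0.26, adjusted p = 0.271), without shMib2 replicate 2 (0.26, adjusted p = 0.151) and with all cells in place of matched ones (0.12, adjusted p = 0.957). Without shCtrl edgeR called 0 genes (485 at an unadjusted p under 0.05), and without shMib2 replicate 1 it called 9.

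Some pigment genes were higher with Cck. The Cck term called 4 of 19 genes of melanin synthesis higher and 0 lower, beside 0.328% of all genes: Oca2 (0.45, adjusted p = 0.000397), Slc24a5 (0.21), Myo5a (0.18) and Tyrp1 (0.13). The Car6 term called 4 of the 19 higher and 3 lower. Slc24a5 averaged 512 CPM (SD 19.0) in double-positive cells at 1 Cck UMI and 708 CPM (SD 7.89) at 51 or more. For hypoxia and glycolysis 20 of 35 genes were lower and 1 higher in the Car6 term, and 0 in either direction in the Cck term. Car9 averaged 246 CPM (SD 18.8) at 1 Car6 UMI and 110 CPM (SD 13.5) at 11 or more, in steps of unequal depth. Cst6, a secreted cysteine protease inhibitor, was lower with Cck (-0.33, adjusted p = 8.73e-06) and was not called with Car6 (-0.07, adjusted p = 0.171). Whether the Cck and Car6 terms of these genes differ from each other was not tested.

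Across all melanoma cells, the genes whose level followed Cck most closely were Arfgef3 (mean Pearson's r over 3 libraries 0.39), Kcnj13 (0.21) and Cyba (0.21), and those that followed Car6 were Cd9 (0.42), Cyba (0.41) and Ssbp4 (0.38). For Cck and Car6 together, over double-positive and double-negative cells, they were Cyba (0.45), Arfgef3 (0.43), Bmyc, Enah, Ssbp4, Fkbp6, Tuba4a, Dbi, Cd9 and Ctsl (0.28). These values describe cells that share a library and depth.

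Finally, double-positive cells were compared between labels, with 1 residual degree of freedom. In edgeR 201 genes were higher (1.37% of 14719) and 10 lower (0.0679%) under the shMib2 labels, or 1.43% in either direction. In double-negative cells 220 were higher (1.65% of 13308) and 9 lower (0.0676%), or 1.72% in all. On simulated counts for this comparison 47 of 184 calls were false, so single calls are weakly held. Genes of antigen presentation and interferon response were among the higher genes: 13 of 20 genes of MHC class I presentation and 14 of 30 of the interferon response were higher and 0 lower. In double-negative cells 12 of 20 and 18 of 30 were higher and 0 lower. The median log2 fold changes were 0.60 and 0.76 in double-positive cells and 0.62 and 1.11 in double-negative cells. This direction was therefore not particular to double-positive cells. In double-positive cells Psmb8, an immunoproteasome subunit, stood at 2.08 CPM in shCtrl and 18.5 and 18.8 CPM under shMib2 (log2 fold change 3.11, SE 0.09, adjusted p = 0.000123). Iigp1, an interferon-inducible GTPase, stood at 2.95 against 17.0 and 21.9 CPM, and the MHC molecules H2-K1 at 39.7 against 68.2 and 76.2 CPM and H2-D1 at 80.5 against 128 and 139 CPM.

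Markers of other cells moved with the label in the same direction. Of 8 fibroblast markers 7 were higher, and Col3a1 stood at 0.516 CPM in shCtrl against 64.7 and 39.0 CPM. Cd74, of antigen-presenting cells, stood at 3.87 against 35.0 and 31.5 CPM, and 3 of 5 erythrocyte markers were higher. Without predicted doublets 8 genes were called, all higher: Psmb8, Psmb9, Irgm1, Cd74, H2-Aa, H2-Ab1, Cd52 and Hbb-bt. The list medians without predicted doublets were 0.82 for the interferon response, with 30 of 30 genes above 0 and 1 called, and 0.57 for MHC class I presentation, with 19 of 20 above 0 and 2 called. The difference between labels itself was then compared between the classes. The interaction term called 5 genes with a more positive label difference in double-positive cells (0.0345% of 14503) and 44 with a more negative one (0.303%), or 0.338% in all. Psmb8, which stood at 0.919, 19.4 and 21.8 CPM in double-negative cells, was among the 44 (-1.31, SE 0.25, adjusted p = 0.00035). DESeq2 called 1 gene in place of 49. With 1 shCtrl library, label and library cannot be told apart. The lower genes were led by the ferritin pseudogene Ftl1-ps1, which shares sequence with its parent gene and is uncertain, at 58.7 against 40.7 and 43.4 CPM, and by Cdkn2d, at 86.8 against 74.1 and 67.1 CPM. Cck itself stood at 929, 1040 and 932 CPM in double-positive cells and Car6 at 202, 228 and 204 CPM, values fixed in part by the rule.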

How the data were processed

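The authors deposited whole-number UMI counts per gene and barcode for each library (32285 genes), made with Cell Ranger 4.0.0 on mm10 per the labels. Nothing was normalized before deposit. Members, gene lists and cut-offs were chosen with earlier results of these data known. Counts were summed per class and library and tested with edgeR 4.0.16 (TMM, filterByExpr, quasi-likelihood F-test, library as block, Benjamini-Hochberg, threshold 0.05). The sources do not say that the libraries came from separate cultures, so p-values extend to no libraries beyond these 3. With the library block, p-values between classes rest on the spread of the class difference over the 3 libraries. For each gene edgeR moderates this spread with values shared over all tested genes. With few residual degrees of freedom, small p-values draw much on that shared estimate and not on a gene's own 3 differences alone. The comparison of double-positive with double-negative cells had 2 residual degrees of freedom, and the 4-class fit had 6. Between labels within a class, shCtrl is a single library, so only the 2 shMib2 libraries give a gene's own spread, moderated the same way. Each SE of an edgeR fold change was worked out as its absolute value divided by the square root of the F statistic. It therefore carries the moderated spread and is not the plain spread over libraries. DESeq2 1.42.0 was an alternative. Doublets were scored per library and kept. Cells were clustered with leidenalg 0.10.2 without Cck and Car6. The named genes were up to 12 per direction with the largest fold change among called genes of at least 20 CPM that moved the same way in 3 libraries, leaving out mitochondrial, ribosomal, unnamed and other cell types' marker genes, plus up to 4 genes of lowest p per list. In the 4-class fit, genes were chosen after their values were seen. On simulated counts with 100 genes changed at each size, the class comparison (13775 genes) recovered 85 of 100 at a log2 fold change of 0.5 and 99 of 100 at 1, with 14 false among 198 calls. The label comparison within double-positive cells (14448 genes) recovered 54 and 83, with 47 false among 184 calls. A gene that the rule named in the comparison of label differences is not reported here.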

Additional observations from a re-analysis of the deposited data

Results flagged for a closer look

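For 8 genes named by rule the difference between labels itself differed between double-positive and double-negative cells, by the interaction term in edgeR's quasi-likelihood test (49 of 14503 genes called, 0.338%, with 1 residual degree of freedom). The label difference was more positive in double-positive cells for Fdft1 (0.27), Mcm5 (0.24) and Sdf2l1 (0.21), on the log2 scale. It was more negative in double-positive cells for S100a6 (-1.12), Crip1 (-0.86), Lhfp (-0.42), H2-D1 (-0.42) and Isg15 (-0.39). H2-D1, for example, stood at 80.5, 128 and 139 CPM in double-positive cells and at 59.2, 139 and 123 CPM in double-negative cells. Of 30 interferon genes 9 had a lower label difference in double-positive cells and 0 a higher one. Matched on total UMIs, 5 genes were called in all, and by DESeq2 1. The interaction had a median of -0.89 over 8 fibroblast markers (0 higher, 1 lower) and of -0.40 over 5 erythrocyte markers (0 higher, 3 lower), the direction of the 5 genes with a more negative label difference and not of the other 3. The part of these markers in the results was not tested.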

How the results depend on the processing

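The 24 named genes were chosen among called genes for large fold changes in the same direction in 3 libraries. Their stability could therefore hardly fail in fits that reuse the same cells, and it does not extend to all genes. Of 312 values of the 24 named genes under 13 alternatives, 311 kept direction and side of the threshold. The exception was Hist1h1e, at -0.00080 after thinning. Thinning also turned Ptgds (0.14), Syt4 (0.020), Mib2 (-0.060) and Cd274 (0.30), and Ptgds was 0.037 with 2 UMIs of each gene required. For genes named in the interaction, 23 of 54 values kept direction and side of the threshold. For the Cck term 34 of 48 did, and for the Car6 term 47 of 48. Between labels, H2-K1 and H2-D1 missed the threshold without predicted doublets (edgeR quasi-likelihood adjusted p = 0.0596 and 0.0866). Genes called between the classes numbered 6725, and 3962 by DESeq2, 1601 after thinning, 3507 matched on depth and 3607 without the library block (5401 to 6223 without 1 library). Within double-positive cells 211 genes were called between labels, and 1352 without a filter, 134 at 50 UMIs, 47 thinned, 33 with 2 UMIs of each gene and 8 without predicted doublets. Leaving out 1 library there leaves no residual degree of freedom, so that gave fold changes with no test. The interaction called 49, and 1 by DESeq2, 9 thinned and 5 matched. The Cck term called 41, 274 without matching and 12 to 45 without 1 library (12 without shCtrl). The Car6 term called 2027, 6237 without matching and 1066 (without shCtrl) to 1388 without 1 library. The combined term called 1, 4 without matching and 0 to 9 without 1 library. The cause of these changes was not tested. The ratio of the double-positive share under shMib2 to that in shCtrl was 1.10, and 1.10 to 1.22 under other cell filters, with 0.972 and 1.24 for each shMib2 library. The planned match of double-negative cells to the depth of double-positive cells could not be made, since 0 such cells lay in the deepest bins of the shMib2 libraries, and both classes were matched instead. The classes were paired within libraries by the library block. Between labels, no paired analysis was possible because shCtrl is a single library.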
